A study of Homo sapiens with 4 samples.

Results

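A list of 54 interferon-stimulated genes, which includes the interferon genes *IFNB1* and *IFNL1*, was followed on the 4 expression arrays of the series. The members are the genes of a fixed list of symbols, and they were selected with the strand-against-mock differences of these same arrays in view. Those differences are therefore given as a description with no test. Of the 54 members, 52 had a probe matched through its RefSeq accession, among 22439 genes matched in all. *SAMD9L* and *IFI27* had no matched probe.

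The cells were A549, an established human lung adenocarcinoma line. One array held RNA of cells that received *miR-486-5p*, 1 held RNA of cells that received *miR-486-3p*, and 2 were mock arrays, whose cells received only the reagent. *miR-486-5p* and *miR-486-3p* are the guide and passenger strands of 1 precursor. No array carried a control miRNA, so the entry of a small RNA and its sequence cannot be told apart here. The labels name no time of harvest, and they do not say whether the mock arrays came from separate cultures.

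Interferons are secreted proteins that warn cells of infection. The type I interferons, such as interferon beta, and the type III interferons, such as interferon lambda 1, bind different receptors, and both receptors activate the kinases JAK1 and TYK2. These phosphorylate STAT proteins, among them STAT2, which joins IRF9 in ISGF3, the factor that binds the interferon-stimulated response element in the promoters of the responding genes. Lung epithelial cells are able both to make these interferons and to respond to them.

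The core of the response element can be written GAAANNGAAA. It was searched on both strands of the promoter windows of RefSeq (GRCh38.p14), which run from 250 bases before to 50 bases after the start of a gene, with overlapping matches counted. It was present in 29 of the 44 members with a window (65.9%) and in 996 of 27305 windows of all genes (3.65%). The windows of 12 members are shown because the results return to these genes: the first 8 were higher after *miR-486-3p* by more than 1 on the log2 scale, and the last 4 were not. Each is 30 bases around the match nearest the start, read on the strand of the gene, with the match or its reverse complement in capitals.
ISG15, chr1:1013380-1013409, plus strand, match centre at −102 bases from the start: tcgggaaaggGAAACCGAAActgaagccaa
IFITM1, chr11:314024-314053, plus strand, match centre at −1: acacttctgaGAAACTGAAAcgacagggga
MX1, chr21:41420559-41420588, plus strand, match centre at 16: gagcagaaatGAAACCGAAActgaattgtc
IFIT1, chr10:89392510-89392539, plus strand, match centre at −98: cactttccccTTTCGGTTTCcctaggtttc
IFIT3, chr10:89327865-89327894, plus strand, match centre at −117: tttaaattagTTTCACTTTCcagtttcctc
IFI6, chr1:27672266-27672295, minus strand, match centre at −88: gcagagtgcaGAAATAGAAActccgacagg
DDX60, chr4:168318786-168318815, minus strand, match centre at −48: gaggagaaagGAAACCGAAActcccgccgg
DTX3L, chr3:122564322-122564351, plus strand, match centre at −1: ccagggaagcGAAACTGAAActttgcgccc
BST2, chr19:17405735-17405764, minus strand, match centre at −119: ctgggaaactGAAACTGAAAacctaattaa
PLSCR1, chr3:146544667-146544696, minus strand, match centre at −74: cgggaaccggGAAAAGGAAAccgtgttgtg
OAS3, chr12:112938452-112938481, plus strand, match centre at −7: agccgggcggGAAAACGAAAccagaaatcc
TRIM5, chr11:5685082-5685111, minus strand, match centre at −22: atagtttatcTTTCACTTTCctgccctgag

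Levels are given as the log2 of the scanner signal relative to the 75th percentile of the array, so that 0 is the level of the 75th percentile. A difference is the value of a strand array minus the mock mean, averaged over the probes in use of a gene. The scanner software marks probes as well above background, and a probe was in use for a strand where it had this mark on the strand array or on each of the mock arrays. Each array held 58201 probes, of which 30690 to 31516 were well above background, and the lowest such signal lay between −4.73 and −4.39. All 4 arrays lay on 1 slide. Over 15558 genes measured on both mock arrays, the difference between these arrays had an SD of 0.168. Among the 37 members measured on both, the difference between the mock arrays had a median size of 0.0951 and was largest for *IFI44*, at 0.47. Each strand was measured on 1 array, so no difference from mock has a replicate check of its own. In RNA of whole cultures, a change in the number of expressing cells and a change in RNA per cell cannot be told apart by these arrays.

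After *miR-486-3p* transfection, 27 of the 40 measured members lay above 0.5 and 4 lay below −0.5. In the same comparison 30.4% of all 16446 measured genes were above 0.5 and 27.2% were below −0.5. The limit of 1 was passed upward by 20 members and downward by 3, beside 14.8% and 14.1% of all genes. The median over the 40 members was 0.99, and the median over all genes was 0.06. *GBP2*, *TRIM22* and *SAMD9* were in use through the *miR-486-3p* array and not through both mock arrays, which selects for an upward difference. Among the 37 members measured on both mock arrays, 25 were above 0.5 and 4 were below −0.5.

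After *miR-486-5p* transfection, 11 of the 39 measured members were above 0.5 and 7 were below −0.5, beside 13.8% and 15.9% of all 16024 measured genes. The limit of 1 was passed by 3 members upward and by 3 downward, beside 2.53% and 4.61% of all genes. The median was 0.13 over the members and 0.03 over all genes. *SAMD9* and *CMPK2* were not measured on both mock arrays, and 9 of the 37 members that were lay above 0.5. Both strands were compared with the same 2 mock arrays, so the differences after the strands are not independent of each other.

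**Figure D1:**
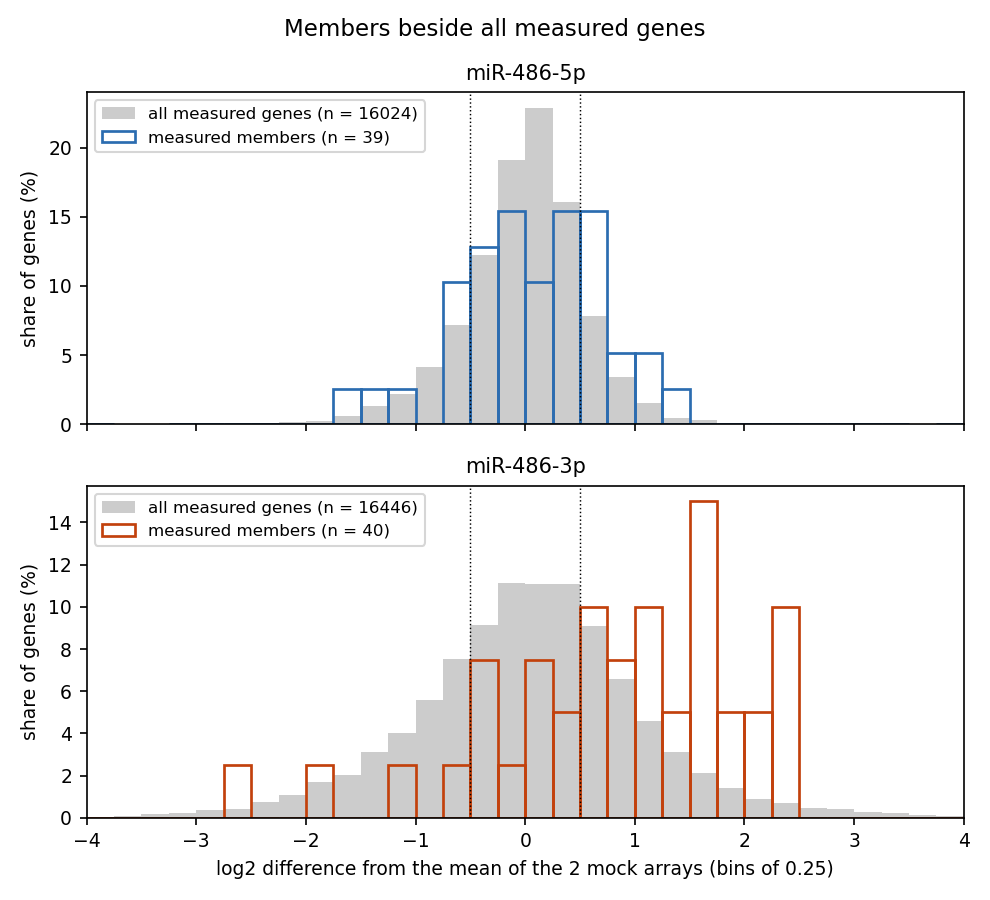
Share of genes (%) by log2 difference from the mock mean, in bins of 0.25, for miR-486-5p (top) and miR-486-3p (bottom). Grey bars are all measured genes (16024 and 16446), coloured outlines are the measured members (39 and 40), and dotted lines mark −0.5 and 0.5; the members lie around 0 after miR-486-5p and mostly to the right of 0.5 after miR-486-3p.

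The interferon genes among the members were at background on these arrays. *IFNB1*, which encodes interferon beta, had a level of −6.74 after *miR-486-5p*, −5.90 after *miR-486-3p*, and −6.86 and −6.90 on the mock arrays. *IFNL1*, which encodes interferon lambda 1, had −5.81, −6.32, −5.48 and −5.25 in the same order. Neither probe was well above background on any array, and no fold is given. Among the other interferon genes, 15 of 19 had a matched probe, and 3 of them, *IFNA4*, *IFNE* and *IFNL2*, were measured on both mock arrays. Their differences were −0.02, 1.52 and 0.34 after *miR-486-5p* and 0.68, 1.24 and 0.22 after *miR-486-3p*.

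The factors that carry the interferon signal to DNA were higher after *miR-486-3p*. *STAT2*, a subunit of ISGF3, had a level of 3.95 after *miR-486-5p*, 4.87 after *miR-486-3p*, and 3.53 and 3.50 on the mock arrays. The difference was 0.44 for *miR-486-5p* and 1.35 (2.54-fold) for *miR-486-3p*. *IRF9*, the DNA-binding subunit of ISGF3, had 0.61, 1.46, −0.35 and −0.28 in the same order, which gave differences of 0.93 (1.91-fold) and 1.77 (3.42-fold). For both subunits the *miR-486-3p* array was highest, the *miR-486-5p* array was next, and the mock arrays were lowest. *IRF1* encodes a factor induced most strongly by interferon gamma. Its level was −1.43 after *miR-486-5p*, −0.23 after *miR-486-3p*, and −1.77 and −1.58 on the mock arrays, with a difference of 1.44 (2.72-fold) for *miR-486-3p*. The *miR-486-5p* value of *IRF1* exceeded the mock mean by 0.24, while the mock arrays differed from each other by 0.19. None of the 3 genes held the motif in its promoter window.

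*ISG15* encodes a ubiquitin-like protein that is conjugated to other proteins. Its level was 4.12 after *miR-486-5p*, 6.56 after *miR-486-3p*, and 4.32 and 4.30 on the mock arrays. This 4.78-fold difference after *miR-486-3p* stood beside a difference of −0.19 after *miR-486-5p*. *UBE2L6*, the conjugating enzyme for ISG15, followed the same order with −0.77, 0.81, −0.96 and −0.85, or 1.71 (3.28-fold) after *miR-486-3p* and 0.13 with *miR-486-5p*. The ligase gene *HERC5* was at 0.59 after *miR-486-3p* and −0.20 with *miR-486-5p*. *HERC6*, its close relative, was instead higher after *miR-486-5p* (0.71) and at 0.39 after *miR-486-3p*. *USP18*, the protease that removes ISG15 and also dampens interferon receptor signaling, had a difference of 0.88 after *miR-486-5p* and 0.18 with *miR-486-3p*. Thus 3 of these 5 genes were above 0.5 after *miR-486-3p* and 2 others after *miR-486-5p*, beside 30.4% and 13.8% of all genes. Under median scaling *HERC5* was no longer above 0.5 after *miR-486-3p*.

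The *IFIT* genes encode proteins that bind viral RNA and block its translation. All 4 members were above 0.5 after *miR-486-3p*, beside 30.4% of all genes. The level of *IFIT1* was −0.48 after *miR-486-5p*, 1.57 after *miR-486-3p*, and 0.03 and −0.17 on the mock arrays, a difference of 1.65 (3.13-fold) after *miR-486-3p*. *IFIT2* had 2 probes. The first gave −1.28, 1.75, −0.63 and −0.81 in this order, and the second gave −3.72, −0.92, −3.40 and −3.42. The probes differed from mock by 2.47 and 2.48 after *miR-486-3p*, or 5.53-fold and 5.59-fold, so both placed the gene at a like distance from mock. *IFIT3* had levels of −1.74, −0.23, −2.09 and −1.99, with a difference of 1.81 (3.51-fold). *IFIT5* was at 0.91 (1.88-fold). After *miR-486-5p* the 4 genes lay between −0.43 and 0.30, and none passed 0.5 in either direction. *IFIT2* and *IFIT3* are neighbours on chromosome 10, as are *IFIT1* and *IFIT5*.

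The *OAS* genes encode sensors of double-stranded RNA that activate RNase L, and their differences were not all on one side. *OAS1* was not well above background on any array. *OASL*, which encodes a relative without this enzyme activity, had a level of −5.54 after *miR-486-5p*, where it was not well above background, −1.42 after *miR-486-3p*, and −2.92 and −3.02 on the mock arrays. It was thereby 2.93-fold higher after *miR-486-3p* (1.55) and at least 3.11-fold lower after *miR-486-5p* (a bound of −1.64). The mock arrays lay between the strand arrays. *OAS3* was below the mock mean after both strands, at −0.60 for *miR-486-5p* and −0.45 with *miR-486-3p*, and 1 of its 2 probes gave bounds. Its *miR-486-3p* difference was −0.76 on the authors' log2 values and −0.82 under median scaling and for its brighter probe alone. Of the 3 *OAS2* probes, 1 was not well above background on any array. The other 2 differed by 0.05 and 1.40 after *miR-486-3p*, and the probe at 0.05 differed by −0.64 between the mock arrays. The *OAS2* mean of 0.73 after *miR-486-3p* rests on 1 probe, and it fell to 0.40 on the authors' log2 values. *OAS1*, *OAS2* and *OAS3* are neighbours on chromosome 12.

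The GTPase members encode proteins that restrict viruses and other intracellular pathogens. *MX1* had a level of −5.28 after *miR-486-5p*, where it was not well above background, −1.86 after *miR-486-3p*, and −4.15 and −4.04 on the mock arrays. It was 4.71-fold higher after *miR-486-3p* (2.23). After *miR-486-5p* its bound was −0.52. *MX2*, the neighbour of *MX1* on chromosome 21, was at −0.31 after *miR-486-3p* and −0.23 with *miR-486-5p*, and its *miR-486-3p* difference was −0.68 under median scaling. *GBP2* exceeded background only on the *miR-486-3p* array, with levels of −4.99 after *miR-486-5p*, −2.57 after *miR-486-3p*, and −4.78 and −5.25 on the mock arrays. This placed it at least 4.46-fold higher after *miR-486-3p*. *GBP3* was higher after both strands. Its probes had levels of −2.59 and −1.60 after *miR-486-5p*, and of −3.10 and −1.42 after *miR-486-3p*. On the mock arrays the first probe was at −4.19 and −3.91 and the second at −2.78 and −3.05. The differences of *GBP3* were 1.38 (2.61-fold) and 1.22 (2.33-fold). *GBP1*, between *GBP3* and *GBP2* on chromosome 1, was not well above background on any array.

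**Figure D2:**
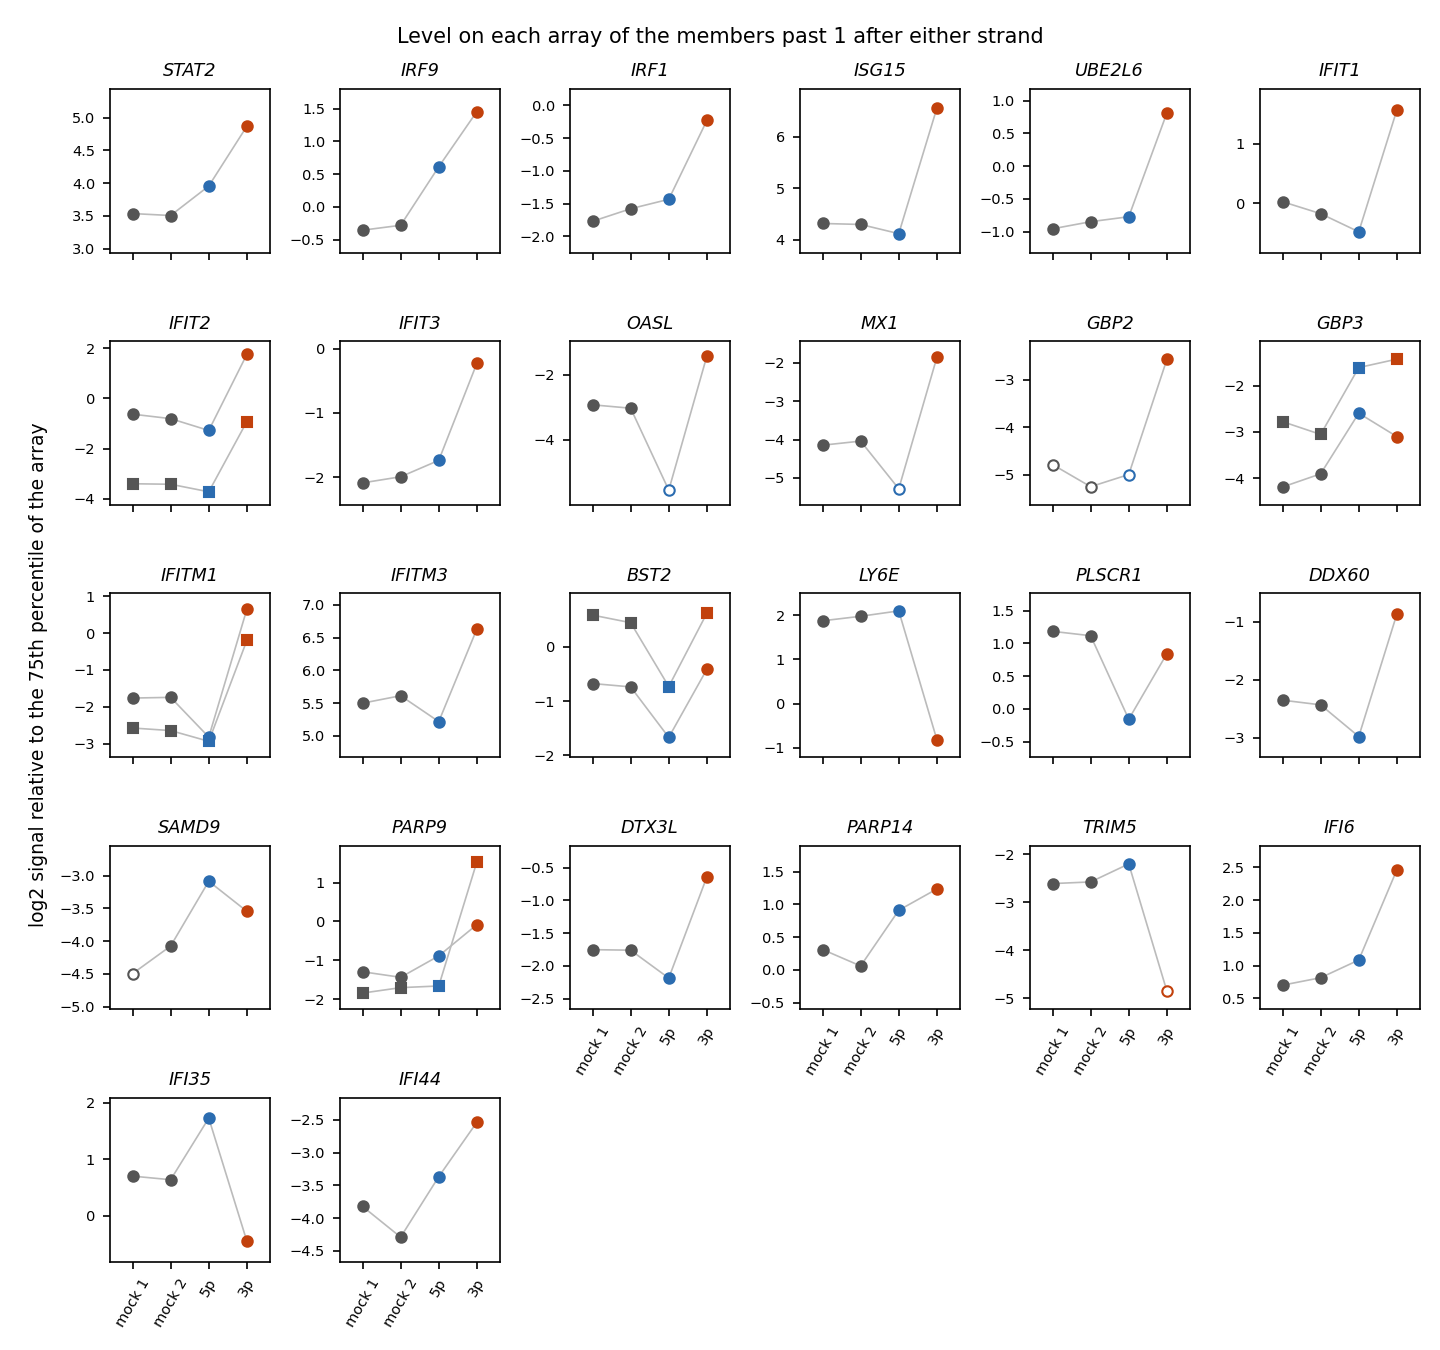
Level of the members past 1 in size after either strand, on mock 1, mock 2, miR-486-5p (5p) and miR-486-3p (3p), as log2 signal relative to the 75th percentile of the array; each line is 1 probe, open points were not well above background, and the vertical axes differ between genes. In most panels the 2 mock arrays are close together and the 3p array stands highest, while LY6E, TRIM5 and IFI35 are lowest on the 3p array. The 5p array is lowest in several panels, among them BST2, PLSCR1, ISG15 and IFITM1, and PLSCR1 is highest on the mock arrays.

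Members that encode membrane proteins went in different directions. The *IFITM* genes encode small proteins that block the fusion of viruses with cell membranes. The first *IFITM1* probe had a level of −2.82 after *miR-486-5p*, 0.64 after *miR-486-3p*, and −1.76 and −1.74 on the mock arrays, and the second probe had −2.93, −0.20, −2.57 and −2.64. Their mean difference was 2.40 (5.28-fold) after *miR-486-3p* and −0.70 with *miR-486-5p*, and on both probes the *miR-486-3p* array was highest and the *miR-486-5p* array was lowest. *IFITM3* had 5.22, 6.63, 5.50 and 5.61, which is 1.08 (2.11-fold) higher after *miR-486-3p*. *IFITM2* was at 0.93 after *miR-486-3p* and −0.46 with *miR-486-5p*. These 3 genes are adjacent on chromosome 11 and alike in sequence, and how well their probes separate them was not tested.

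*BST2* encodes tetherin, which holds budding viruses on the cell surface. Its first probe had a level of −1.67 after *miR-486-5p*, −0.41 after *miR-486-3p*, and −0.67 and −0.74 on the mock arrays. The second had −0.73, 0.62, 0.59 and 0.45. The gene was 2.15-fold lower after *miR-486-5p* (−1.10) and at 0.20 after *miR-486-3p*. *PLSCR1*, which encodes a phospholipid scramblase, was 2.48-fold lower after *miR-486-5p*, with levels of −0.16, 0.84, 1.18 and 1.12 in the same order. Its difference after *miR-486-3p* was −0.31. *LY6E*, which encodes a lipid-anchored surface protein, was the member with the lowest difference after *miR-486-3p*. Its level was 2.10 after *miR-486-5p*, −0.81 after *miR-486-3p*, and 1.88 and 1.98 on the mock arrays. It was therefore 6.68-fold lower on the *miR-486-3p* array (−2.74), while the *miR-486-5p* and mock arrays lay close together.

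Of the members that act on nucleic acids, *DDX60*, which encodes a helicase-like protein, had a level of −2.98 after *miR-486-5p*, −0.87 after *miR-486-3p*, and −2.35 and −2.43 on the mock arrays. It was 2.88-fold higher after *miR-486-3p* (1.53) and at −0.59 after *miR-486-5p*. The exonuclease gene *ISG20* was at 0.90 after *miR-486-3p* and 0.01 with *miR-486-5p*. *SAMD9*, which encodes a restriction factor of poxviruses, was dim, with levels of −3.09, −3.55, −4.50 and −4.07 and mock 1 not well above background. Its differences were 1.20 after *miR-486-5p* and 0.74 with *miR-486-3p*, and they ranged over 0.99 to 1.41 and 0.53 to 0.95 when 1 mock array was left out. *CMPK2*, a nucleotide kinase gene, was at 0.75 after *miR-486-5p* with 1 probe well above background on that array and on mock 2. That value uses the mock 1 level of −5.55 as measured, below the lowest signal well above background on mock 1. Against mock 2 alone *CMPK2* was at 0.25, and against mock 1 alone its bound was 0.42, so it was not above 0.5 against either. *RSAD2*, the neighbour of *CMPK2* on chromosome 2, encodes viperin and was not well above background on any array.

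*PARP9* encodes a protein that pairs with the ubiquitin ligase DTX3L. Its first probe had a level of −0.89 after *miR-486-5p*, −0.08 after *miR-486-3p*, and −1.30 and −1.44 on the mock arrays. The second had −1.66, 1.53, −1.85 and −1.71. After *miR-486-3p* the probes differed from mock by 1.29 and 3.31, that is 2.44-fold and 9.90-fold, and the mean was 2.30. Both probes were higher, but they disagreed on the size. *DTX3L* itself had levels of −2.19, −0.64, −1.75 and −1.76, with a difference of 1.11 (2.17-fold) after *miR-486-3p* and −0.43 with *miR-486-5p*. *PARP9* and *DTX3L* are neighbours on chromosome 3. *PARP14*, which encodes an enzyme that transfers ADP-ribose, was higher after both strands, with levels of 0.91, 1.23, 0.31 and 0.06 and differences of 0.72 (1.65-fold) and 1.05 (2.07-fold).

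The *TRIM* members encode ubiquitin ligases. *TRIM5*, which acts against retroviral capsids, had a level of −2.20 after *miR-486-5p*, −4.85 after *miR-486-3p*, where it was not well above background, and −2.61 and −2.57 on the mock arrays. It was at least 3.48-fold lower after *miR-486-3p* and at 0.39 after *miR-486-5p*. Under background correction with normexp and an offset of 50, described below, *TRIM5* was at −0.18 after *miR-486-3p*, no longer below −0.5. *TRIM21*, an intracellular antibody receptor gene, was at 0.61 after *miR-486-5p* and −0.12 with *miR-486-3p*. *TRIM22* exceeded background only on the *miR-486-3p* array, and its bound of 0.47 there did not reach the limit. *SP110* and *PML* encode proteins of nuclear bodies, and both had higher values after *miR-486-5p* than after *miR-486-3p*. *SP110* was at 0.75 and 0.24. *PML* was at 0.29 and −0.69, and its 3 probes ranged from −1.49 to 0.17 after *miR-486-3p*.

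Among the remaining members, *IFI6*, which encodes a mitochondrial and endoplasmic reticulum protein, had a level of 1.09 after *miR-486-5p*, 2.46 after *miR-486-3p*, and 0.70 and 0.82 on the mock arrays. Its difference was 1.71 (3.26-fold) after *miR-486-3p* and 0.33 with *miR-486-5p*. *IFI44* was dim, at −3.37, −2.53, −3.82 and −4.29, with differences of 0.69 and 1.52 (2.87-fold). Against mock 1 alone its *miR-486-5p* difference was 0.45. *IFI35*, whose product binds the regulator NMI, went the other way. Its level was 1.72 after *miR-486-5p*, −0.45 after *miR-486-3p*, and 0.70 and 0.64 on the mock arrays. It was 2.08-fold higher after *miR-486-5p* (1.05) and 2.17-fold lower after *miR-486-3p* (−1.12). *LGALS3BP*, which encodes a secreted glycoprotein, was at −0.04 and 0.64. *IFI44L*, *XAF1*, *EPSTI1*, *RTP4*, and the chemokine genes *CXCL10* and *CXCL11*, which attract T cells, were not well above background on any array. In all, 11 members with a probe were dim on all 4 arrays.

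**Figure D3:**
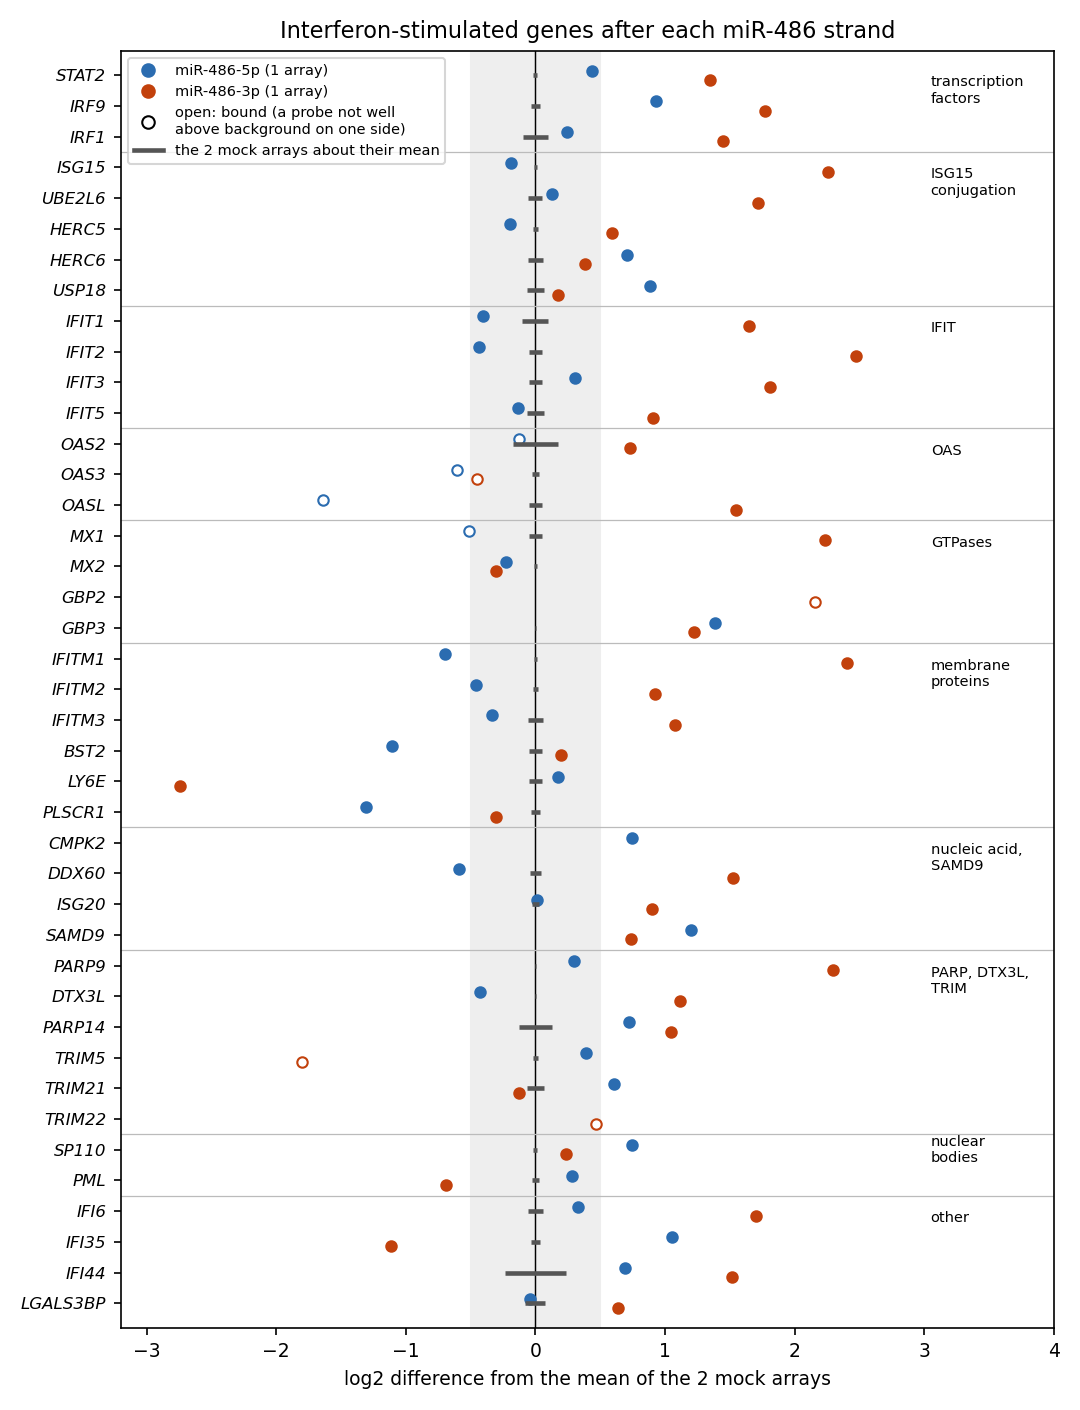
Log2 difference of each measured member from the mock mean after miR-486-5p (blue) and miR-486-3p (orange), 1 array each, grouped by role; open points are or include a bound, the dark bar spans the 2 mock arrays about their mean, and the grey band marks −0.5 to 0.5. After miR-486-3p 27 of 40 members lie to the right of the band and 4 to the left of it, and after miR-486-5p 11 of 39 lie to the right and 7 to the left.

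The strand arrays were also set against each other over the 38 members measured for both. The level was higher on the *miR-486-3p* array than on the *miR-486-5p* array for 27 of the 38 (71.1%), beside 50.2% of the 15808 genes measured for both. The median of the *miR-486-3p* difference minus the *miR-486-5p* difference was 0.90 over these members and 0.00412 over all these genes. *IRF9*, *GBP3*, *SAMD9*, *PARP14* and *IFI44* were above 0.5 in each comparison with mock, and the mock arrays are shared, so this is no independent result. *HERC6*, *USP18*, *TRIM21* and *SP110* were above 0.5 after *miR-486-5p* and within 0.5 of mock after *miR-486-3p*. *OASL*, *MX1*, *IFITM1* and *DDX60* were below −0.5 after *miR-486-5p* and above 0.5 after *miR-486-3p*, and *IFI35* was the reverse. Under background correction with normexp and an offset of 50, described below, *OASL*, *MX1*, *IFITM1* and *DDX60* were not below −0.5 after *miR-486-5p*. The shares of all genes above 0.5 after both strands, or past 0.5 in opposite directions, were not counted. These differences between strands were not tested, since each strand has 1 array.

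The genes that receive and pass on the interferon signal are not members, and they were taken from a separate list of 17. After *miR-486-3p*, 6 of 17 measured were above 0.5 and 2 were below −0.5, and after *miR-486-5p* 2 of 16 were above and 1 was below. The shares of all genes were 30.4% and 27.2% after *miR-486-3p* and 13.8% and 15.9% after *miR-486-5p*, so these counts lie near the background. Among the 15 genes of this list measured on both mock arrays, *miR-486-3p* had 4 above 0.5 and 2 below −0.5, and *miR-486-5p* had 1 on each side. Under median scaling the counts over the list after *miR-486-3p* were 6 and 5, beside 17.8% and 41.7% of all genes. The receptor subunit genes *IFNAR1* and *IFNAR2* were at 0.45 and 0.01 after *miR-486-5p* and at 0.08 and 0.07 after *miR-486-3p*. The 3 probes of *IFNAR2* disagreed after *miR-486-3p*, with 1 probe 2.46-fold higher and the others at −0.66 and −0.43. The kinase gene *JAK1* was at 0.48 and 1.21, and *TYK2* was at 0.30 and −0.51.

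A list of 49 further interferon-stimulated genes outside the 54 gave 44 measured genes. After *miR-486-3p*, 23 were above 0.5 and 7 below −0.5, with a median of 0.53, beside 30.4% and 27.2% of all genes. After *miR-486-5p*, 11 were above and 2 below, with a median of 0.14, beside 13.8% and 15.9%. Under median scaling these counts were 13 and 12 after *miR-486-3p*, beside 17.8% and 41.7% of all genes, and 7 and 4 after *miR-486-5p*, beside 10.9% and 19.1%. The highest after *miR-486-3p* were *NUB1* (1.87), *DDX60L* (1.85) and *APOL6* (1.59), and the lowest were *LAMP3* (−1.61), *BATF2* (−1.47) and *LAP3* (−0.83). After *miR-486-5p* the highest were *BATF2* (1.10), *SLFN11* (1.05) and *IRF7* (1.01), a factor that amplifies interferon production, and the lowest were *APOL6* (−1.33), *LAMP3* (−1.13) and *CNP* (−0.49). One *APOL6* probe, the only one in use after *miR-486-5p*, differed by −2.13 between the mock arrays, and the other probe in use after *miR-486-3p* was not well above background on either of them. With 1 mock array left out, *APOL6* ranged from −2.40 to −0.27 after *miR-486-5p* and from 1.01 to 2.18 after *miR-486-3p*. *IRF7* was at 0.60 after *miR-486-3p*.

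Members with and without the motif were set side by side after *miR-486-3p*, where 30.4% of all measured genes were above 0.5 and 27.2% were below −0.5. Of the 29 members with it, 22 were measured, 17 were above 0.5 and 1, *TRIM5*, was below −0.5, with a median of 1.06. Of the 15 with a promoter window and no match, 8 were measured, 5 were above 0.5 and 1, *IFI35*, was below −0.5, with a median of 1.40. Several members without a match, among them *PARP9*, *IRF9* and *UBE2L6*, had differences above 1. The windows printed above for *BST2*, *PLSCR1* and *OAS3* hold a match, and these genes were within 0.5 of mock after *miR-486-3p*. Median scaling put *PLSCR1* at −0.68, and *OAS3* was below −0.5 under 6 of the 10 alternatives. Among the further interferon-stimulated genes, 16 of 36 windows held the motif (44.4%). A match is no proof that the site is bound, and a window without these letters says nothing about more distant sites.

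**Figure D4:**
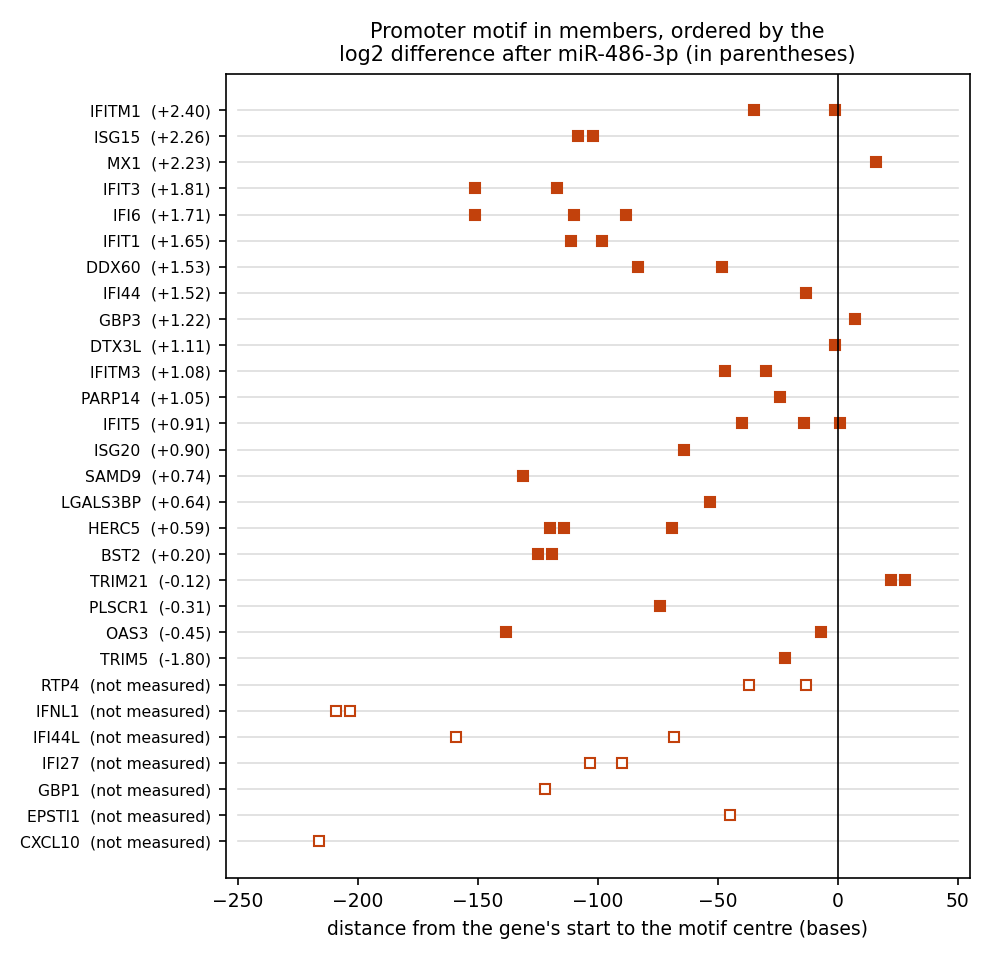
Distance in bases from the start of the gene to the centre of each GAAANNGAAA match in the 29 members with a match, from 250 bases before to 50 after the start, ordered by the log2 difference after miR-486-3p given beside each name. Filled squares are members measured for miR-486-3p (22) and open squares are the others; matches lie on both sides of the start in members above and below 0.5.

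The labelled cell type was checked against its markers. The keratin genes *KRT7*, *KRT8*, *KRT18* and *KRT19* were well above background on all 4 arrays, *EPCAM* on 2, and *CDH1*, which encodes E-cadherin, on none. Of 8 immune cell genes, 6 had a probe well above background on all 4 arrays, among them *PTPRC*, *CD3E*, *CD14*, *ITGAM* and *LILRA4*, and *NCAM1* and *MS4A1* had none. The summed signal of the immune probes was 1.61 times the 75th percentile after *miR-486-5p*, 2.14 times after *miR-486-3p*, and 1.75 and 1.71 times on the mock arrays. The summed epithelial signal was 171, 173, 230 and 228 times the 75th percentile. *CD14* was at 2.23 after *miR-486-3p*. Of 13 reference genes, 5 were below −0.5 after *miR-486-3p*, with *RPLP0* at −2.84, and none was above 0.5. The part of these shifts in the values of the members was not tested.

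The counts of members above and below the limit were recomputed under each processing choice. On the authors' log2 values, to which the list refers, 25 of 40 members were above 0.5 after *miR-486-3p* and 6 below −0.5, and after *miR-486-5p* the counts were 11 and 7 of 39. Median scaling lowered the median over all genes after *miR-486-3p* from 0.06 to −0.32. With it, 17.8% of all genes were above 0.5 and 41.7% below −0.5, and the members numbered 23 above and 7 below. Background correction with normexp and an offset of 50, which draws the differences of dim probes toward 0, left 21 members above and 2 below after *miR-486-3p* and 5 above and 2 below after *miR-486-5p*. With this correction *MX1* was at 0.58, *GBP2* at 0.43, *GBP3* at 0.41 and *IFI44* at 0.42 after *miR-486-3p*, while *ISG15* was at 2.13 and *STAT2* at 1.27. *OASL* was then at 0.51, *TRIM5* at −0.18 and *PML* at −0.27 after *miR-486-3p*.

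**Figure D5:**
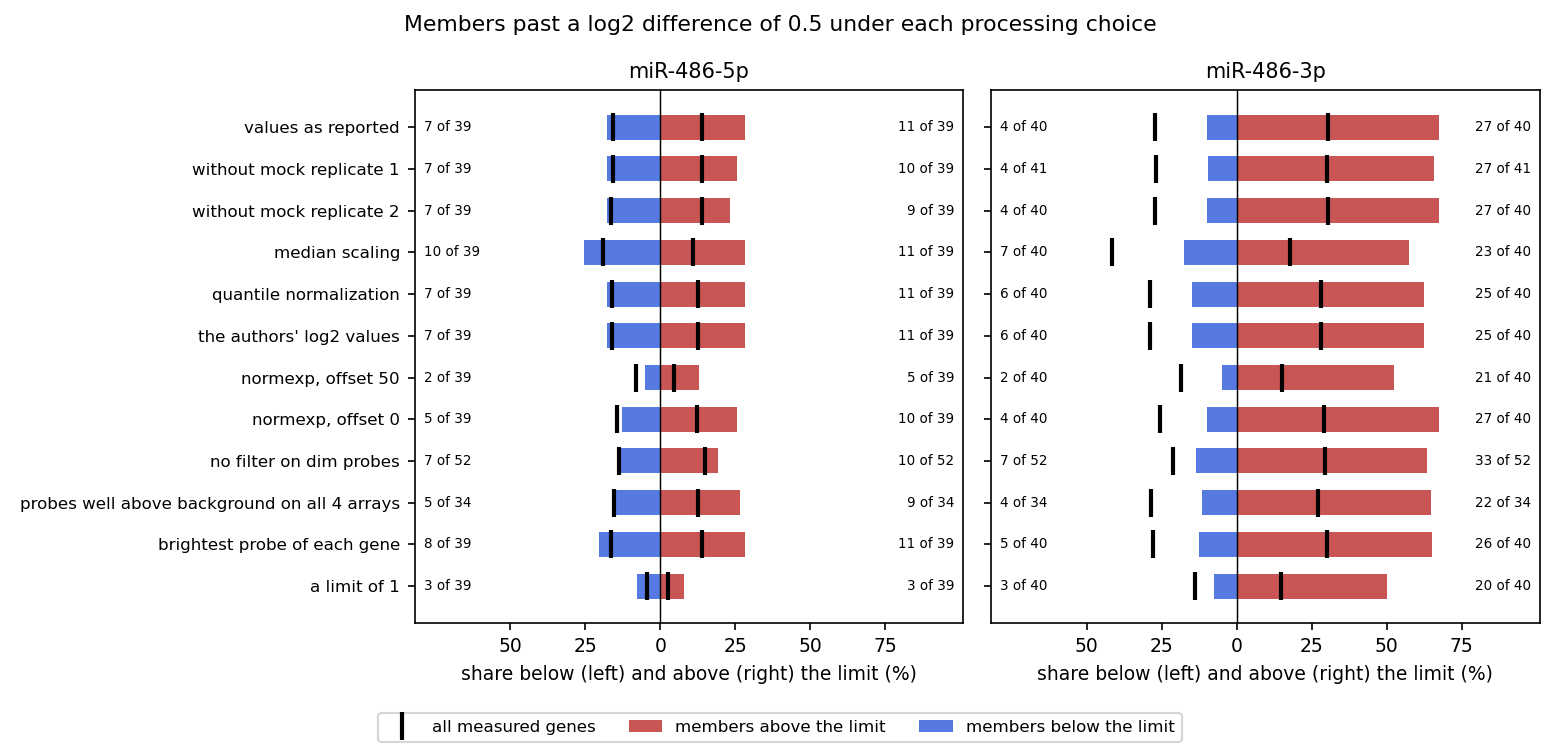
Share of measured members above (red, right) and below (blue, left) the limit under each processing choice, for miR-486-5p and miR-486-3p, with the number of members at the edges; the limit is 0.5 in size except in the last row, and black marks give the share of all measured genes. After miR-486-3p the members above the limit numbered 20 to 33 under these choices, and in each of them the share was larger than that of all genes.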

How the data were processed

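RNA of A549 cells was hybridized to 4 1-color Agilent arrays (1 *miR-486-5p*, 1 *miR-486-3p*, 2 mock). The deposited scanner files come from Agilent Feature Extraction 12.1.1.1 and give each spot a processed signal, an intensity on a linear scale after background subtraction. A table of log2 values was deposited too, with identical quartiles on the 4 arrays. How this table was normalized is not given in the sources used here.

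The log2 of the processed signal minus the 75th percentile of the array, over spots that are not controls, was used, because the scanner files carry the detection flags. The authors' log2 values, to which the list of members refers, were an alternative. Spots marked as outliers (50 to 72 per array) were left out, and spots of a probe were averaged. No spot was saturated. A probe not well above background on all arrays of one side was raised there to the lowest signal of a detected probe, which gives a bound written as "at least". Probes were named through RefSeq accessions in a table of GRCh38.p14, used for names and neighbours alone since the arrays were annotated on another build. This matched 31104 probes to 22439 genes, with 66 probes for the members.

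The members and all gene lists were chosen with earlier results of these data known. There is 1 array per strand, so no test was run and no p is given. The limits of 0.5 and 1 on the log2 scale are descriptive. The level on every array was printed for members past 1 after either strand with both mock arrays on one side, for *IFNB1* and *IFNL1*, and for *STAT2*, *IRF9* and *IRF1*. From the other lists, *IRF7*, *IFNAR1*, *IFNAR2*, *JAK1*, *TYK2*, and the 3 highest and 3 lowest further interferon-stimulated genes after each strand were named. Marker, reference and other interferon genes named beside them were chosen after their values were seen, and some genes of these lists are not reported here by name.

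The alternatives were median scaling, quantile normalization, the authors' log2 values, 1 mock array in place of 2, normexp on the median signal and background with offsets of 50 and 0 (the mean signal was not used here), dim probes kept, only probes detected on all 4 arrays, the brightest probe of a gene, and a limit of 1. The code was tested on simulated data. Python 3.11.15 with numpy 2.4.6 and pandas 2.3.3, R 4.3.3 and limma 3.58.1 were used. Precision is limited by the number of arrays.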

Additional observations from a re-analysis of the deposited data

Results flagged for a closer look

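Members past 0.5 in opposite directions after the 2 strands were *OASL*, *MX1*, *IFITM1*, *DDX60* and *IFI35*. The share of all genes with such opposite differences was not counted, so these genes have no background to be set beside. The *miR-486-3p* difference minus the *miR-486-5p* difference was 3.19 for *OASL*, 2.75 for *MX1*, 3.10 for *IFITM1* and 2.11 for *DDX60*. It was −2.17 for *IFI35*. The *OASL* and *MX1* values include a bound, since both were dim on the *miR-486-5p* array. Under normexp with an offset of 50, the *miR-486-5p* differences of *OASL*, *MX1*, *IFITM1* and *DDX60* were −0.22, −0.04, −0.13 and −0.06. None of these was below −0.5. The *miR-486-3p* differences of these genes were smaller too, at 0.51, 0.58, 1.20 and 0.71 in the same order. Without this correction they were 1.55, 2.23, 2.40 and 1.53. *DDX60* was at −0.36 after *miR-486-5p* with an offset of 0. *IFI35* was at 0.87 and −0.66 with an offset of 50. Both differences share the mock arrays, each strand has 1 array, and the difference between strands was not tested.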

How the results depend on the processing

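Among the genes named with a difference past 0.5, the sign changed under these alternatives for *SLFN11* alone, whose *miR-486-3p* difference of −0.57 became 0.154 and 0.0346 under normexp with offsets of 50 and 0. With 1 mock array left out, the median over the members was 0.0761 to 0.185 after *miR-486-5p* and 0.95 to 0.977 after *miR-486-3p*, and the receptor and signalling genes numbered 1 to 3 above 0.5 after *miR-486-5p* and 1 to 2 below −0.5 after *miR-486-3p*. The member median after *miR-486-5p* was 0.0538 under median scaling, 0.102 under quantile normalization, 0.1 on the authors' log2 values, 0.0775 and 0.0973 under normexp with offsets of 50 and 0, and 0.151 with probes well above background on all 4 arrays. After *miR-486-3p* it was 0.614 under median scaling, 1.05 under quantile normalization and on the authors' log2 values, 0.505 and 0.96 under normexp with offsets of 50 and 0, and 0.918 with no filter. Members below −0.5 after *miR-486-3p* numbered 7 under median scaling and with no filter, and 2 under normexp with an offset of 50. That correction left 5 members above and 2 below after *miR-486-5p*, and a limit of 1 left 3 and 3. The causes of these shifts were not tested, except that a higher limit passes fewer genes.

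Of the further interferon-stimulated genes, median scaling left 7 above and 4 below after *miR-486-5p* and 13 and 12 after *miR-486-3p*. Normexp with an offset of 50 left 4 above after *miR-486-5p* and 13 above and 3 below after *miR-486-3p*. A limit of 1 left 3 above after *miR-486-5p* and 11 above and 2 below after *miR-486-3p*, and the brightest probe gave 4 below after *miR-486-5p*. Of the receptor and signalling genes, 5 were below after *miR-486-3p* under median scaling. Normexp gave 0 above after *miR-486-5p* and 0 below after *miR-486-3p* with an offset of 50, and 1 and 1 with an offset of 0. A limit of 1 left 0 above and 0 below after *miR-486-5p* and 0 below after *miR-486-3p*, and probes well above background on all 4 arrays gave 1 above after *miR-486-5p*.

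Of the 27 members above 0.5 after *miR-486-3p*, median scaling lost *HERC5*, *OAS2*, *SAMD9* and *LGALS3BP*, the authors' log2 values lost *OAS2* and *SAMD9*, and leaving out either mock array lost none. Of the 11 above 0.5 after *miR-486-5p*, *CMPK2* was lost without either mock array and *IFI44* without mock 2. *MX1* was no longer below −0.5 after *miR-486-5p* without mock 2. Dim members, among them *GBP2*, *GBP3*, *MX1*, *OASL*, *SAMD9*, *TRIM5* and *IFI44*, are limited by their signal over background. No paired analysis was possible because each strand has 1 array and the labels pair no samples.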
